A study of Mus musculus with 10 samples.

Results

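Autophagy is the route by which a cell encloses part of its own cytoplasm in a double membrane and delivers it to lysosomes. The genes described here are 38 mouse autophagy genes, chosen by name from 41813 genes in the expression tables. They and the further gene lists below were picked with earlier results of these data known, so their shares beside those of all genes only describe. All 38 genes had a row and passed the filter on low counts. They were measured by RNA-seq in dendritic cells, which present antigen to T cells, grown from bone marrow and labelled CD11c+ with high MHC class II, in 3 activated and 3 non-activated libraries. The design text of the series says that all dendritic cells received LPS, which bacteria carry and TLR4 senses, and then were pulsed (activated) or not pulsed (non-activated) with the ovalbumin peptide OVA323-339. They then spent 24 h with CD4+ T cells of the OT-II line of mice, transgenic for a receptor to that peptide. The sample labels differ from this text, since they record LPS stimulation for activated cells and none for the rest. The names activated and non-activated therefore follow the sample titles. Strain, sex and age of the mice are not given in the labels, nor whether each replicate was its own animal or culture. The p-values thus describe the spread between these libraries, which may be technical. The other 4 of the 10 samples, labelled ATAC-seq, were not analysed here.

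Autophagosome formation runs through a sequence of protein groups. The ULK1 kinase complex starts it, the class III PI3 kinase complex around Vps34 and Beclin 1 marks the membrane with a lipid, and ATG9A, the ATG2 proteins and WIPI proteins supply and bind that membrane. Ubiquitin-like conjugation by ATG7, ATG3, ATG10 and the ATG12-ATG5-ATG16L1 complex then attaches LC3 and GABARAP proteins, together the ATG8 family, to the growing membrane, where cargo receptors such as p62 (Sqstm1) bind them. In dendritic cells this machinery is known to feed cytosolic antigens to MHC class II compartments and to take part in LC3-associated phagocytosis, the lipidation of single-membrane phagosomes.

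The libraries held between 21338012 and 27404937 expected counts. The dendritic cell genes Itgax (CD11c) and H2-Ab1 (MHC class II) were present in each library, at 77.7 to 181 TPM and 3048 to 4729 TPM, where TPM is the deposited abundance, scaled by gene length and library size. The libraries numbered 1 stood apart in both groups. The T cell receptor constant gene Trac stood at 41160 TPM in activated replicate 1 and 41069 TPM in non-activated replicate 1, against 14.4 to 160 TPM in the other 4 libraries, and Trbc2 at 297 and 292 TPM against 1.51 to 5.57 TPM. The genes Cd3e, Cd3d, Cd3g and Cd4, which define T cells, reached at most 2.98 TPM in any library. The summed TPM of the 16 T cell markers other than Trac and Trbc2 was 59.2, 28.5 and 27.8 for activated libraries, in the order of replicates 1 to 3, and 13.8, 27.1 and 22.4 for non-activated libraries. Of the 18 T cell markers, 9 were tested, 4 were higher in activated libraries (Lck, Il2, Zap70 and Cd247) and 0 lower, and their part in the results below was not tested. Without both libraries numbered 1, 5 of 9 tested were higher and 1 lower, where 12.9% of all tested genes were higher and 10.4% lower. Of the 6 fits that leave out 1 library, Lck passed in 6, Il2 and Zap70 in 3 each and Cd247 in 1. Of 14 dendritic cell markers 7 were higher and 0 lower, where 15.9% of all tested genes were higher and 11.7% lower. Bulk RNA cannot tell fewer cells of a type from less RNA per cell.

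The autophagy genes changed by small amounts and more often downwards. In activated libraries 11 of the 38 genes were lower and 4 higher, and 23 did not pass; the threshold was 0.05 on the adjusted p from the quasi-likelihood test in edgeR. Among all 13946 genes tested, 27.6% passed, 15.9% higher and 11.7% lower, whereas 39.5% of the autophagy genes passed, 10.5% higher and 28.9% lower. The median log2 fold change was -0.14 over the 38 genes and 0.01 over all genes tested, and the median size without sign was 0.22 and 0.28. By mean TPM every autophagy gene except Wipi1 and Atg4c stood above the median of all genes tested. The shares and medians of all tested genes were not matched for level. Of the 38, 4 genes, all lower, changed by at least 1.5-fold, a size for which no share of all tested genes was counted. By at least 2-fold 0 of the 38 changed, a size that 8.94% of all tested genes reached while passing. In CPM, counts scaled to the size of the library, the groups did not overlap for 22 of the 38 genes, 16 with activated libraries below and 6 above, or 57.9% against a background of 44.7% (20.7% below and 23.9% above). Every gene that passed was among these, which is not separate support for a call, since both rest on the same libraries. Without both libraries numbered 1, 9 genes were lower and 1 higher; 8 of the 11 and 1 of the 4 were among these. In that fit of 2 against 2 libraries 10.4% of all tested genes were lower and 12.9% higher. With the replicate number as a block, 13 were lower and 4 higher against a background of 37.2%.

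**Figure D1:**
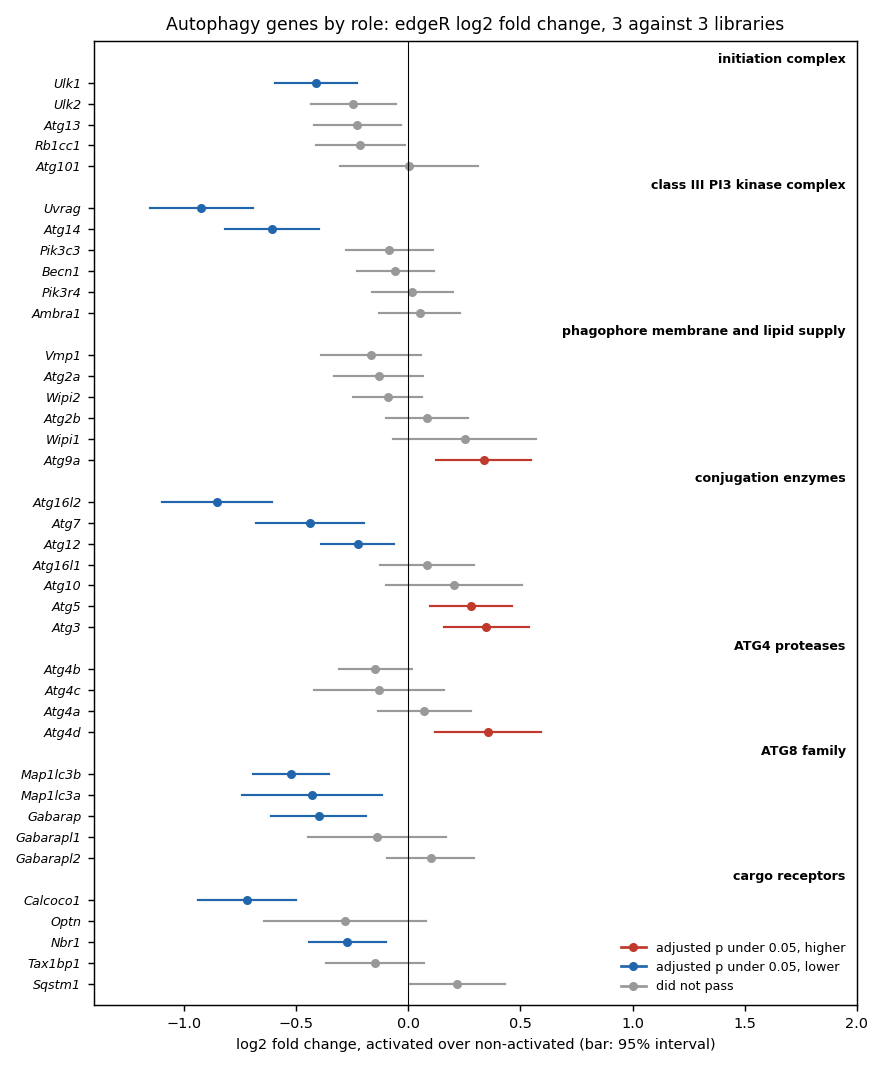
Log2 fold change of each of the 38 autophagy genes, activated over non-activated, grouped by role, from edgeR on 3 against 3 libraries; points are estimates, bars 95% intervals, and colour marks the call at an adjusted p of 0.05. Uvrag (-0.92) and Atg16l2 (-0.85) lie farthest from 0, and the 4 genes called higher lie between 0.28 and 0.35.

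By transcript level the list spanned from 5.48 to 1447 TPM. The cargo receptor Sqstm1 was the most abundant, at 1425 ± 28.0 TPM (SD, n = 3) in activated and 1253 ± 66.4 TPM in non-activated cells. Gabarap followed at 689 ± 52.1 and 928 ± 27.1 TPM, then Map1lc3b at 212 ± 3.59 and 281 ± 8.77 TPM. Next in the order of mean level were Vmp1, a membrane protein of the endoplasmic reticulum that acts at autophagosome formation (228 ± 26.1 and 260 ± 18.5 TPM), and the receptor Tax1bp1 (201 ± 16.6 and 226 ± 17.4 TPM), whose values overlapped each other. Only 7 of the 38 genes averaged above 100 TPM over the 6 libraries. The lowest was Wipi1, at 6.55 ± 0.323 and 5.73 ± 0.298 TPM.

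**Figure D2:**
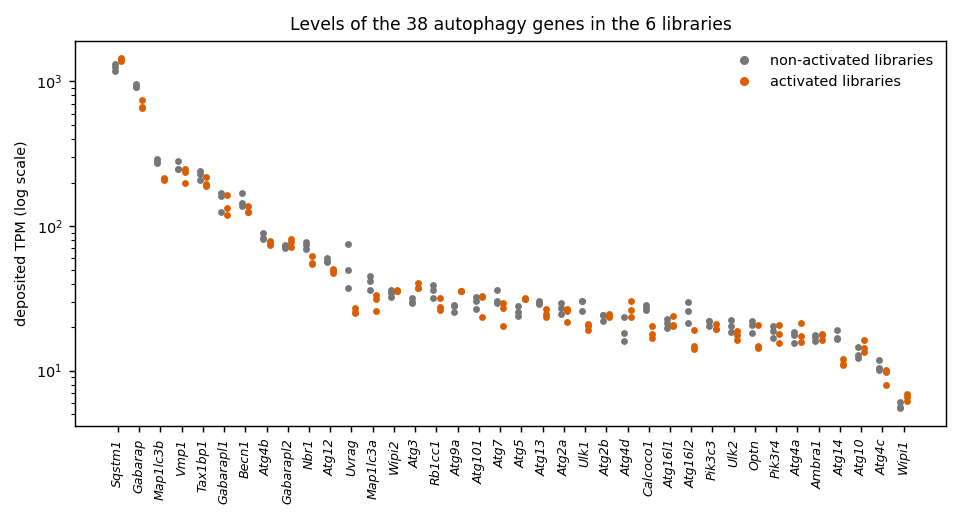
Deposited TPM of the 38 autophagy genes in each of the 6 libraries on a log axis, ordered by mean level, with non-activated libraries in grey and activated libraries in orange. Values run from 5.48 TPM (Wipi1) to 1447 TPM (Sqstm1), and the groups are apart for Gabarap and Map1lc3b but mix for Vmp1 and Tax1bp1.

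In the initiation complex Ulk1, the kinase that starts autophagosome formation, was the member that fell. Its CPM was 60.8, 56.0 and 54.2 in activated libraries 1, 2 and 3 and 78.0, 77.2 and 72.0 in non-activated ones, so every activated library lay below every non-activated one. The difference was 1.33-fold (log2 -0.41 ± 0.08, SE; edgeR adjusted p = 0.00595). Its paralogue Ulk2 (57.6 ± 1.59 against 68.2 ± 5.50 CPM), the scaffold Rb1cc1, also called FIP200 (57.1 ± 5.43 against 66.3 ± 1.54 CPM), and the regulatory subunit Atg13 (52.7 ± 1.47 against 61.6 ± 5.26 CPM) did not pass, with edgeR adjusted p of 0.0592, 0.102 and 0.0802. In CPM, activated libraries lay below non-activated ones for these 3 genes as well, as they did for 20.7% of all tested genes. In TPM the groups overlapped for Ulk2. Ulk2 passed in 4 of 17 alternative analyses: with the replicate block (edgeR adjusted p = 0.0400), without non-activated replicate 2 (0.0409), and with RLE (0.0498) or upper-quartile (0.0400) factors. Rb1cc1 passed in 2, without activated replicate 1 (0.0227) and without both libraries numbered 1 (0.0399). Atg13 passed in 1, without non-activated replicate 3 (0.0494). Atg101, which stabilises Atg13, had a log2 fold change of 0.00, with a 95% interval of -0.30 to 0.31.

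In the class III PI3 kinase complexes the alternative subunits fell while no call was made for the core. Uvrag, the subunit of the complex that acts on endosomes and at autophagosome maturation, had 55.9, 63.8 and 62.2 CPM in activated libraries 1, 2 and 3 and 117, 102 and 126 CPM in non-activated ones. At 1.90-fold lower (log2 -0.92 ± 0.10, SE; edgeR adjusted p = 0.000364) it had the smallest p of the 38 genes and stood at rank 449 of all tested genes. Atg14, the subunit that directs the complex to sites of autophagosome formation, had 27.7, 24.4 and 24.0 against 39.0, 36.6 and 40.3 CPM. It was 1.52-fold lower (log2 -0.61 ± 0.09, SE; edgeR adjusted p = 0.00191), and for both genes the groups were well apart. The shared core had narrow intervals around 0. The log2 fold changes were -0.08 (95% interval -0.28 to 0.11) for the catalytic subunit Pik3c3, 0.02 (-0.16 to 0.20) for the regulatory subunit Pik3r4 and -0.06 (-0.23 to 0.11) for Becn1. Ambra1, which binds Beclin 1, was at 0.05 (-0.13 to 0.23). The Uvrag and Atg14 calls held without any 1 library.

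Among genes of the membrane supply, Atg9a rose and the others did not pass. ATG9A is the transmembrane protein of the vesicles that seed the autophagosome. Its CPM was 83.4, 85.1 and 79.4 in activated and 73.4, 59.9 and 63.1 in non-activated replicates 1 to 3, groups that do not overlap, a rise of 1.26-fold (log2 0.34 ± 0.09, SE; edgeR adjusted p = 0.0285). The call held without non-activated replicate 1 but was lost without any of the other 5 libraries (range of edgeR adjusted p 0.0582 to 0.110). The lipid transfer genes Atg2a and Atg2b were at log2 -0.13 and 0.08, the phosphoinositide-binding Wipi1 and Wipi2 at 0.25 and -0.09, and Vmp1 at -0.16, with edgeR adjusted p of 0.218 to 0.479.

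The conjugation enzymes moved in both directions, 3 lower, 2 higher and 2 not passing of 7, where 11.7% of all tested genes were lower and 15.9% higher. Atg16l2, a paralogue of Atg16l1, had 10.4, 11.5 and 12.0 CPM in activated libraries 1, 2 and 3 and 20.1, 21.8 and 19.3 CPM in non-activated ones. It was 1.80-fold lower (log2 -0.85 ± 0.11, SE; edgeR adjusted p = 0.000754), while Atg16l1, which places the conjugation complex on membranes, did not pass (log2 0.08, 95% interval -0.12 to 0.29). Per length, the ratio of Atg16l2 to Atg16l1 was 0.739 ± 0.0585 in activated and 1.19 ± 0.117 in non-activated libraries (SD, n = 3), apart in all libraries, with an exact two-sided permutation p of 0.1, the smallest that 3 against 3 can give. Permuted within same-numbered pairs, an alternative chosen after seeing the data, the exact p was 0.25, again the smallest possible, so neither form can reach 0.05. Atg7, the enzyme that activates both ubiquitin-like conjugates, was 1.35-fold lower (47.0 ± 5.58 against 63.6 ± 5.17 CPM; edgeR adjusted p = 0.0165), but leaving out non-activated replicate 2 ended the call (edgeR adjusted p = 0.0661). In limma on the deposited TPM it did not pass either (log2 -0.31, limma adjusted p = 0.204).

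By contrast Atg3, the enzyme that transfers LC3 to its lipid, was 1.27-fold higher, with 49.1, 52.2 and 46.0 against 38.9, 40.3 and 36.4 CPM (log2 0.35 ± 0.08, SE; edgeR adjusted p = 0.0155). That call was lost without activated replicate 2 (edgeR adjusted p = 0.0663) or non-activated replicate 3 (0.0707). Atg5, which joins ATG12 in the conjugate that assists lipidation, was 1.21-fold higher (46.0 ± 1.29 against 37.9 ± 2.38 CPM; edgeR adjusted p = 0.0317). Its partner Atg12 was 1.17-fold lower (77.7 ± 3.18 against 90.8 ± 0.840 CPM; edgeR adjusted p = 0.0467). The groups did not overlap for any of these 3 genes. The Atg5 call was lost when any 1 of the 6 libraries was left out (edgeR adjusted p 0.0652 to 0.127), and Atg12 passed only without activated replicate 1 (0.0923 to 0.127 without any other library). RefSeq places Atg12 across the unrelated gene Ap3s1 (104 against 102 CPM), and reads of overlapping genes cannot be told apart where strand is not kept. Atg10, which joins ATG12 to ATG5, did not pass (log2 0.21, 95% interval -0.10 to 0.51).

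Promoter sequence was available in the RefSeq tables (GRCm38.p6) for 32 of the 38 genes, in 38 windows of 300 bases that include 250 bases before the start. The letters CACGTG, the palindromic E-box core that TFEB, TFE3 and MITF can bind, were searched on both strands. They occurred in 4 of the 38 windows (10.5%), against 7.15% of 32841 windows of all genes. The 4 genes were Atg3 and Atg5, called higher, and Atg7 and Atg14, called lower, so windows with the match belonged to genes that moved both ways. The AP-1 core TGANTCA was in 0 of the 38 windows (7.81% of all), and the STAT-type spacing TTCNNNGAA in 4, or 10.5% (8.30% of all). No gene with CACGTG in a window held either of the other motifs, and a match describes letters only. The upstream 250 bases are shown for the 3 conjugation enzymes whose match lies before the start, with CACGTG in capitals, and for Uvrag and the ATG8 family gene Map1lc3b, which fell and had no match. They run 5′ to 3′ on the strand of the gene.
Atg3, chr16:45158579-45158828, plus strand: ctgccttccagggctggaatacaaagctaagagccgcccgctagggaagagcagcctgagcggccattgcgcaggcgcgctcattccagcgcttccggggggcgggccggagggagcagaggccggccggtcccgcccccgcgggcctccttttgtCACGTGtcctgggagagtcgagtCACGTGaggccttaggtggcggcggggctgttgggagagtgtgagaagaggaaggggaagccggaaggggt
Atg5, chr10:44268089-44268338, plus strand: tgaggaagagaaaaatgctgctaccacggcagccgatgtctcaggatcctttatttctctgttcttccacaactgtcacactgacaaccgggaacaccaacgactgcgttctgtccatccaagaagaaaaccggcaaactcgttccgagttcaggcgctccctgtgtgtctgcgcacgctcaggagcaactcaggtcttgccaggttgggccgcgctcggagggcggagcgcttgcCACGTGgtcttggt
Atg7, chr6:114670846-114671095, plus strand: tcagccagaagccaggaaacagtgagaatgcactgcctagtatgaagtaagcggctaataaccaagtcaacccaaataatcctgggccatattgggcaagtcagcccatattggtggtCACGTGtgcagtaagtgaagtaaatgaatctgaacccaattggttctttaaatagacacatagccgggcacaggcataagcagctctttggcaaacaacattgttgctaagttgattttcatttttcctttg
Uvrag, chr7:99141145-99141394, minus strand: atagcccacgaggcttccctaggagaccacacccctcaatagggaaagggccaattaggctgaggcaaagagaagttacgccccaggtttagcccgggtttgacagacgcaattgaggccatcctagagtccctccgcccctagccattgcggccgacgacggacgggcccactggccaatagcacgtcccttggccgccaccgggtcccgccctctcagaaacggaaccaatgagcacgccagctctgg
Map1lc3b, chr8:121590188-121590437, plus strand: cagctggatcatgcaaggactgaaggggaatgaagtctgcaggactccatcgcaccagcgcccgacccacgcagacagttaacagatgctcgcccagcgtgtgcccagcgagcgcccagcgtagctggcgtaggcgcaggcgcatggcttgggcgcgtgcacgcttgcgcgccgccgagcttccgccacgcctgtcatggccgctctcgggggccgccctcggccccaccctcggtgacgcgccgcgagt
The Atg3 sequence holds the E-box at 94 and 71 bases before the start, the Atg5 sequence at 14 and the Atg7 sequence at 132. The Atg7 window belongs to a start inside the gene, whose RefSeq span runs from 114643127 to 114860604 on chromosome 6. The Atg5 match precedes the start of its window but lies inside the RefSeq span of Atg5, which begins at 44268322 on chromosome 10. GC content was 68.0% for Atg3, 56.4% for Atg5, 43.2% for Atg7, 61.6% for Uvrag and 69.6% for Map1lc3b.

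**Figure D3:**
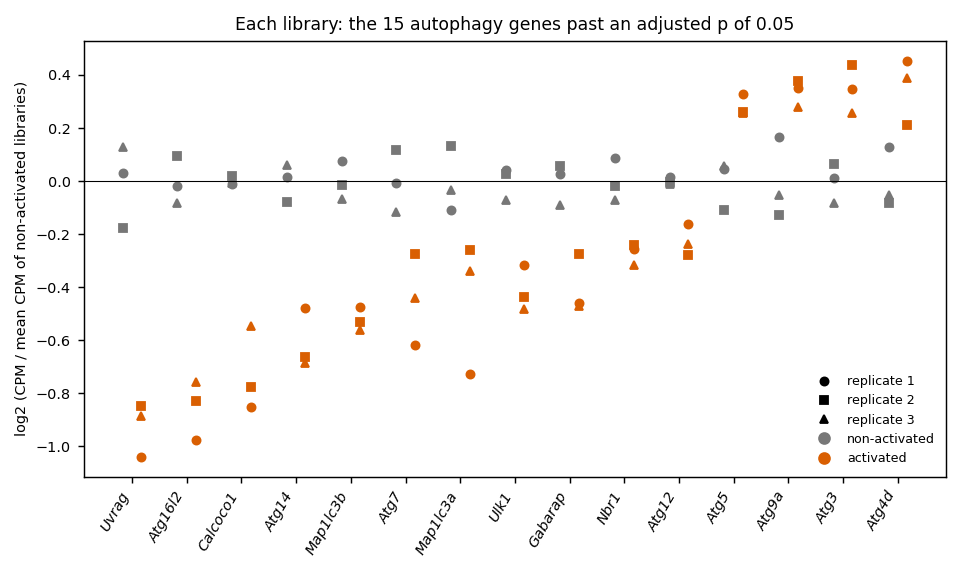
The 15 autophagy genes that passed an adjusted p of 0.05, each library shown as log2 of its CPM over the mean CPM of the non-activated libraries, with non-activated libraries in grey, activated in orange and the replicate number as the marker shape. Activated and non-activated libraries do not overlap for any of the 15, which were picked for their difference between these same libraries. Among all tested genes the groups did not overlap for 44.7%. Activated replicate 1 is the lowest for Uvrag, Atg16l2, Calcoco1, Atg7 and Map1lc3a.

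The ATG4 proteases trim ATG8 proteins before and after lipidation. Atg4d was 1.28-fold higher, at 31.6, 26.7 and 30.2 CPM in activated and 25.2, 21.8 and 22.2 CPM in non-activated replicates 1 to 3 (log2 0.35 ± 0.10, SE; edgeR adjusted p = 0.0341). Its groups did not overlap in CPM, though they did in TPM. The call was lost without activated replicate 1 or 3, and likewise without the non-activated replicates 2 or 3 (range of edgeR adjusted p 0.0982 to 0.120), and RefSeq places it across Kri1, which was also higher (41.6 against 35.0 CPM, edgeR adjusted p = 0.0369). Atg4b, the most abundant protease of the 4 at 76.2 ± 3.02 and 84.7 ± 3.95 TPM, did not pass (edgeR adjusted p = 0.167), nor did Atg4a (0.602) or Atg4c (0.493).

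In the ATG8 family 3 of 5 genes fell, where 11.7% of all tested genes were lower, and these included the pair with the highest levels. Map1lc3b, which encodes LC3B, had 165, 159 and 155 CPM in activated libraries 1, 2 and 3 and 242, 228 and 219 CPM in non-activated ones. It was 1.44-fold lower (log2 -0.52 ± 0.07, SE; edgeR adjusted p = 0.00144). Gabarap had 342, 389 and 339 against 480, 490 and 443 CPM and was 1.32-fold lower (log2 -0.40 ± 0.09, SE; edgeR adjusted p = 0.0137). For both, every activated library was below every non-activated one. Leaving out non-activated replicate 2 ended the Gabarap call (edgeR adjusted p = 0.0563), while Map1lc3b kept its call without any 1 library. Map1lc3a, a low member, was 1.35-fold lower (17.5 ± 2.88 against 23.5 ± 2.04 CPM; edgeR adjusted p = 0.0470) and kept its call only without activated replicate 2, the adjusted p being 0.0650 to 0.154 without any other library. The paralogues Gabarapl1 (151 ± 25.4 against 167 ± 20.1 CPM) and Gabarapl2 (49.6 ± 4.00 against 46.3 ± 1.70 CPM) did not pass, with edgeR adjusted p of 0.486 and 0.421.

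Summed over the 5 genes, ATG8 family transcripts stood at 1091, 1225 and 1125 TPM in activated libraries 1, 2 and 3 and at 1435, 1520 and 1466 TPM in non-activated ones. The activated sum was 0.778 times the other, with no overlap (exact two-sided permutation p = 0.1, and 0.25 within pairs, each the smallest possible). Gabarap made up 60.1% ± 0.883 of the sum in activated and 62.9% ± 0.543 in non-activated libraries, and Gabarapl2 6.74% ± 0.830 against 4.91% ± 0.228 (SD, n = 3). Map1lc3b held 18.5% ± 1.41 and 19.1% ± 1.06, values that overlapped.

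**Figure D4:**
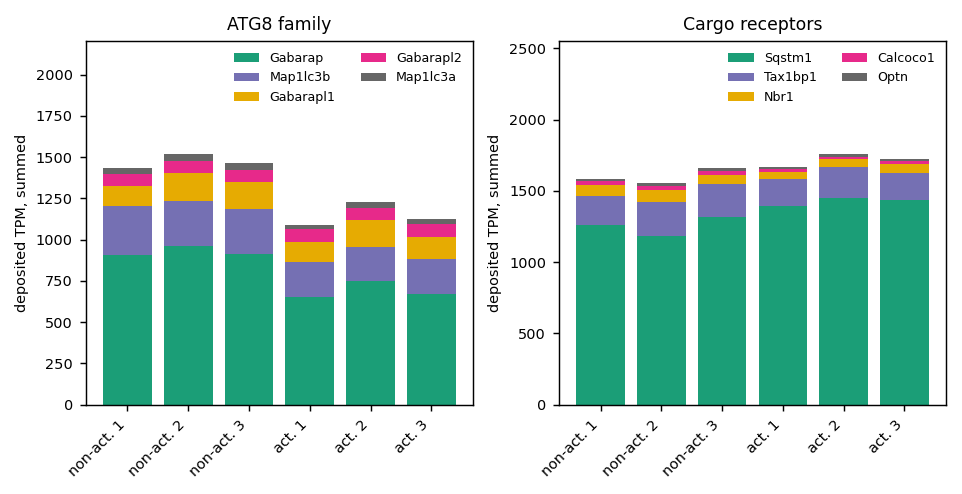
Deposited TPM summed over the 5 ATG8 family genes (left) and the 5 cargo receptors (right) in each of the 6 libraries, with 1 colour per gene and bars from 0. The ATG8 sums are 1091 to 1225 TPM in activated and 1435 to 1520 TPM in non-activated libraries, while the receptor sums are 1667 to 1761 and 1553 to 1663 TPM and consist mostly of Sqstm1.

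Cargo receptors link ubiquitin or other marks on cargo to the ATG8 proteins. Calcoco1, a receptor for parts of the endoplasmic reticulum, had 25.9, 27.3 and 32.0 CPM in activated libraries 1, 2 and 3 and 46.4, 47.4 and 46.5 CPM in non-activated ones. It was 1.64-fold lower (log2 -0.72 ± 0.10, SE; edgeR adjusted p = 0.00101), and the call held without any 1 library. Nbr1, a ubiquitin-binding receptor, was 1.21-fold lower (117, 118 and 112 against 148, 137 and 133 CPM; edgeR adjusted p = 0.0282). The groups were apart, but the Nbr1 call held only without activated replicate 1, with edgeR adjusted p of 0.0501 to 0.100 without any other library. Sqstm1, the ubiquitin-binding p62 and itself degraded by autophagy, lay higher in all activated libraries at 1677, 1710 and 1642 CPM against 1512, 1385 and 1423 CPM. This did not pass in edgeR (log2 0.22, 95% interval 0.01 to 0.43; edgeR adjusted p = 0.115), whereas DESeq2 called it (DESeq2 adjusted p = 0.0412). The ratio of Sqstm1 to Map1lc3b in TPM was 6.48, 6.96 and 6.74 in activated and 4.33, 4.27 and 4.80 in non-activated libraries (exact two-sided permutation p = 0.1, and 0.25 within pairs, each the smallest possible). Among the other ratios formed, Sqstm1 to Nbr1 gave the same p-values. The groups overlapped for Uvrag to Atg14 (exact permutation p = 0.3, and 0.5 within pairs) and for Ulk1 to Ulk2 (0.2 and 0.5). These are ratios of transcripts, and autophagy itself was not measured. Optn and Tax1bp1, both ubiquitin-binding receptors, had log2 fold changes of -0.28 and -0.15 with edgeR adjusted p of 0.228 and 0.289. Optn passed with the replicate block (edgeR adjusted p = 0.0417) or without activated replicate 2 (0.0166).

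Calls differed in how firmly they stood. The 17 alternative analyses share data and methods, so their counts are not counts of separate checks. Of these analyses, 6 leave out 1 library and 3 leave out 2, and several are limma fits on the same TPM. Calcoco1, Atg14 and Map1lc3b passed in 17, Uvrag and Atg16l2 in 16, Ulk1 in 15 and Gabarap in 13. Of the genes called higher, Atg3 passed in 12, Atg9a in 10, Atg4d in 6 and Atg5 in 3. The remaining lower genes passed in 12 (Atg7), 9 (Nbr1), 6 (Map1lc3a) and 5 (Atg12). In every alternative each of the 15 genes kept the sign of its log2 fold change. The replicate block kept all 15 calls. Its edgeR adjusted p was 0.00795 for Map1lc3a, 0.00886 for Atg4d and 0.0105 for Atg9a. For Nbr1, Atg5 and Atg12 it was 0.0139, 0.0148 and 0.0264. That fit also called more of all tested genes, 37.2% against 27.6%.

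**Figure D5:**
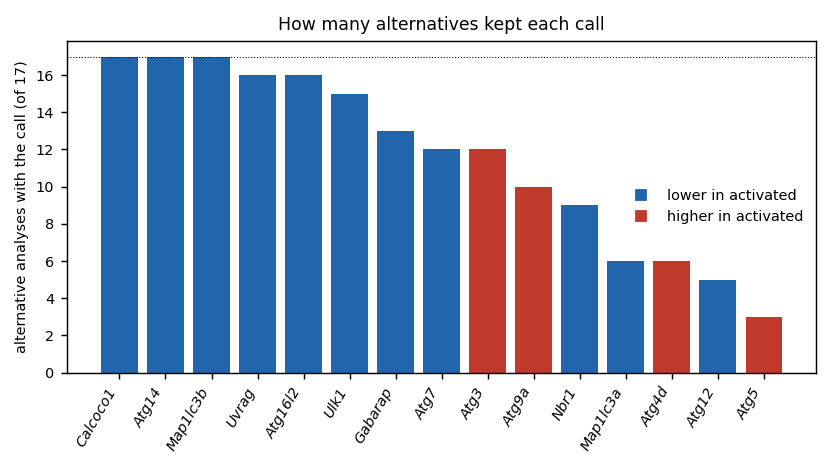
Number of 17 alternative analyses in which each of the 15 called genes passed an adjusted p of 0.05, with blue bars for genes lower and red bars for genes higher in activated cells. Calcoco1, Atg14 and Map1lc3b reach 17 and Atg5 reaches 3.

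Effective length, which the tables give per gene and library and which moves with the mix of transcripts that a gene's reads are assigned to, differed without overlap between the groups for 6 of the 38 genes, or 15.8%, against 9.83% of all tested genes. It was longer in activated libraries for 3 genes and shorter for 3, or 7.89% each, against 5.21% and 4.62% of all tested genes. It was shorter in activated libraries for Map1lc3b (1095 to 1115 against 1179 to 1238 bases), Calcoco1 (2200 to 2407 against 2520 to 2524) and Wipi2 (2916 to 3141 against 3312 to 3516). It was longer for Becn1 (1393 to 1489 against 1210 to 1386), Wipi1 and Atg16l1. A change of length separates the 2 scales, so Map1lc3b was lower by log2 0.52 in counts and, on the log2(TPM + 1) scale, had a log2 fold change of -0.40 (limma adjusted p = 0.00812). For Becn1 the values were -0.06 in counts and -0.21 in TPM (limma adjusted p = 0.185). For Uvrag the non-activated libraries ranged from 2583 to 4003 bases, and their TPM spread more (37.4 to 75.3) than their CPM (102 to 126).

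Of 32 genes of nutrient sensing upstream of ULK1, 2 were higher, 10 lower and 20 did not pass (median log2 -0.15). That is 6.25% higher and 31.2% lower, against 15.9% and 11.7% of all tested genes. Sesn3, a sestrin that restrains mTORC1, went from 56.3 ± 5.46 to 13.8 ± 2.72 CPM (log2 -2.03 ± 0.15, SE; edgeR adjusted p = 5.18e-05). Castor1, the arginine sensor that inhibits mTORC1 through GATOR2, went from 37.3 ± 2.05 to 11.4 ± 2.53 CPM (log2 -1.71 ± 0.16, SE; edgeR adjusted p = 0.000156). The Rag GTPase Rragd was lower (7.24 against 13.3 CPM), as was the AMPK gamma subunit Prkag1 (44.0 against 60.8 CPM), whereas the AMPK catalytic subunit Prkaa2 was higher at a low level (7.92 against 2.71 CPM; edgeR adjusted p = 0.00414). Each of these 5 calls held without any 1 library. Without both libraries numbered 1, 1 of the 32 was higher and 6 lower, against the 12.9% and 10.4% of all genes in that fit, which also apply to the lists below.

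Among 13 tested transcription factors and cofactors of autophagy and lysosome genes, 3 were higher and 3 lower (2 and 2 without both libraries numbered 1), so 46.2% passed against 27.6% of all tested genes. Tfeb, the main transcriptional regulator of lysosome and autophagy genes, went from 15.3 ± 1.22 to 9.10 ± 0.747 CPM (log2 -0.75 ± 0.12, SE; edgeR adjusted p = 0.00270). The forkhead factor Foxo4 was higher (28.2 ± 3.73 against 19.2 ± 0.237 CPM; edgeR adjusted p = 0.00682). Both calls held without any 1 library but not in limma on the deposited TPM. Mitf, a relative of Tfeb, was higher (63.3 ± 5.10 against 48.5 ± 5.65 CPM; edgeR adjusted p = 0.0271), a call that ended without activated replicate 2 or 3 or the non-activated ones numbered 2 or 3 (up to 0.105).

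Of 20 further regulators of the phagophore and PI3 kinase, 3 were higher and 5 lower (2 and 2 without both libraries numbered 1), so 40% passed against the same 27.6%. The ATPase Vcp, which extracts ubiquitinated proteins, was higher (578 ± 23.5 against 309 ± 11.7 CPM; edgeR adjusted p = 0.000159). So was the interferon-inducible GTPase Irgm1 (96.9 ± 26.3 against 36.8 ± 1.83 CPM; 0.00103). Trp53inp1, which binds ATG8 proteins, was lower (45.8 ± 1.84 against 79.7 ± 7.01 CPM; edgeR adjusted p = 0.000367), and Tecpr1, which binds ATG5 on lysosomes, was lower too (104 ± 16.3 against 183 ± 21.0 CPM; 0.00250). These 4 calls held in all 17 alternatives.

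At fusion with the lysosome 1 of 19 tested genes was higher and 6 lower (1 and 3 without both libraries numbered 1). These are 5.26% higher and 31.6% lower, against 15.9% and 11.7% of all tested genes. The SNARE Vamp8 (51.8 ± 1.41 against 66.2 ± 2.68 CPM) and the lysosomal membrane protein Lamp1 (788 ± 85.9 against 1130 ± 48.3 CPM) were lower, with edgeR adjusted p of 0.00734 and 0.00872, while the SNARE Vti1b was higher (66.0 ± 4.24 against 49.9 ± 4.20 CPM; edgeR adjusted p = 0.0114). Further selective receptors gave 1 higher and 2 lower of 17 (also without both libraries numbered 1), so that 17.6% passed, below the 27.6% of all tested genes. These were the endoplasmic reticulum receptors Ccpg1 (40.6 against 59.7 CPM) lower and Atl3 (217 against 156 CPM) higher, and the mitophagy kinase Pink1 lower (33.1 against 51.2 CPM). Calls for these 6 genes held without any 1 library. Of the 6 oxidase genes of LC3-associated phagocytosis, Cybb alone passed, 16.7% of the list against 27.6% of all tested genes (1151 ± 240 against 733 ± 188 CPM; edgeR adjusted p = 0.0484), and it held only without activated replicate 1 or non-activated replicate 1. Leaving out any of the other 4 libraries ended the Cybb call, and over all 6 such fits the edgeR adjusted p ran from 0.0189 to 0.151.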

How the data were processed

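RNA-seq of 6 libraries, 3 activated and 3 non-activated, was analysed. Per the file headers, the authors deposited RSEM-style gene tables with an expected count and a TPM for each gene, TPM being scaled by effective length. The submitters' processing notes name GRCm38; the RNA aligner is not given in the sources used. Gene IDs were matched to symbols for 41597 of 41813 genes.

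Expected counts were rounded and tested in edgeR 4.0.16 (R 4.3.3). The low-count filter filterByExpr kept 13946 genes. TMM scaling was followed by glmQLFit and glmQLFTest on group alone, and p-values were adjusted by Benjamini-Hochberg over all genes, with a threshold of 0.05. The SE is the log2 fold change divided by the root of F. CPM values are scaled by TMM. Between-library variation (common biological coefficient) was 16.9%, and no member had under 175 counts in a library. Totals were 21338012 to 27404937 counts. Alternatives were DESeq2 1.42.0, RLE and upper-quartile factors, no filter, the replicate block, limma 3.58.1 on log2(TPM + 1) or log2(TPM + 0.1), and leaving out libraries. The fits were run on simulated counts drawn independently for each library, without variation shared by same-numbered libraries. That run does not show how the fits behave where such variation is present.

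Sample titles share replicate numbers. Same-numbered libraries deviated together from their group means (r = 0.398, 0.313 and 0.187), unlike differently numbered ones (-0.315 to 0.0402). Deviations from a group mean sum to 0 within the group, so the second range partly follows from the first and is not separate evidence. Libraries of the same number thus shared variation beyond their group, and the meaning of a number is not in the labels. The main test and the fits that leave out libraries used group alone. Only the replicate block takes the numbers into account. Chi-square over degrees of freedom was 14.0 to 65.1 for pairs of libraries within groups and 106 to 195 across groups, so no 2 libraries agreed within sampling noise.

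Genes named are all members past the threshold, the 5 most abundant, those whose call changed with an alternative, and up to 5 per further list. The members and lists were chosen with earlier results of these data known. Of the listed further genes, 1 symbol was not matched.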

Additional observations from a re-analysis of the deposited data

How the results depend on the processing

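The 15 called genes gave 255 values over 17 alternatives, of which 174 kept the call, 81 lost it and 0 changed sign; genes that did not pass gained a call in 10 of 391 values. With 3 libraries per group the smaller changes lie near the threshold, and the cause of lost calls was not tested unless stated. Lower genes numbered 5 in unfiltered limma on TPM, and from 5 to 11 with 1 library or both libraries of a number left out. Calls over all genes, given below, were fewer in each of these settings too. Higher genes numbered 2 without a filter on low counts, 2 in limma on TPM with a pseudocount of 1 or 0.1, 2 in unfiltered limma, and from 0 to 3 with libraries left out. The fits that leave out both libraries of a number rest on 2 against 2.

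Over all genes, unfiltered limma on TPM called 1882 (1163 higher and 719 lower), against 3848 (2216 and 1632) in the edgeR test. Leaving out libraries gave 1785 to 3629 calls, 1185 to 1956 higher and 600 to 1673 lower. The replicate block called 5184 genes, 2787 higher and 2397 lower; among the members it added Ulk2 and Optn and changed no other call.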
